A study of Mus musculus with 7 samples.

Results

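H3K18La at the genes that take up glucose and carry it through the upper steps of glycolysis was examined in the postnatal mouse retina. The genes were *Slc2a1*, *Hk1*, *Hk2*, *Gpi1*, *Pfkl*, *Pfkm*, *Pfkp*, *Aldoa*, *Aldoc* and *Tpi1*, 10 of the 25400 gene symbols that had a peak. Every peak whose deposited gene symbol was one of them was taken, which gave 53 of the 108253 peaks. H3K18La is histone H3 lactylated at lysine 18, and it was mapped by CUT&Tag, in which an antibody guides a tethered enzyme to the mark so that the DNA beside it can be sequenced. Whole retinas of C57Bl/6J mice were dissociated at postnatal day 4 (P4, 2 libraries), day 10 (P10, 2 libraries) and day 28 (P28, 3 libraries), with no genetic change or treatment named in the labels. The study called the libraries of an age biological replicates, and its text speaks of more of them per age than were analysed here at P4 and P10. How many animals went into each library was not given in the sources used here. In a dissociated retina, a change in the share of a cell type and a change of the mark within each cell cannot be told apart.

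*Slc2a1* encodes GLUT1, the main glucose transporter of the retina. Hexokinases (*Hk1*, *Hk2*) phosphorylate glucose, glucose-6-phosphate isomerase (*Gpi1*) converts it to fructose-6-phosphate, and phosphofructokinase, a tetramer of liver (*Pfkl*), muscle (*Pfkm*) and platelet (*Pfkp*) type subunits, adds another phosphate at the committed step of the pathway. Aldolases A and C (*Aldoa*, *Aldoc*) then split the sugar into triose phosphates, which triosephosphate isomerase (*Tpi1*) interconverts. The mature retina turns much of its glucose into lactate even when oxygen is present, and photoreceptors are the main site of this aerobic glycolysis.

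The phosphofructokinase genes differed most among isoenzymes in signal at promoter-class peaks at P28, so the 250 bases before a RefSeq start of each are shown (GRCm38.p6, 5′ to 3′ on the strand of the gene). That of *Pfkp* lies at chr13:6648772-6649021 on the minus strand and that of *Pfkm* at chr15:98108221-98108470 on the plus strand, and both starts lay inside a peak. That of *Pfkl* lies at chr10:78009808-78010057 on the minus strand, before a start that no peak held. The central 300 bases of the *Hk1* intronic peak with the highest signal of all 53 peaks (chr10:62300265-62300564, shown on the plus strand, while *Hk1* runs on the minus strand) are given with them. Capitals mark matches, on either strand, to a GC box (GGGCGG), a hypoxia-response core (ACGTG), an E-box (CACGTG), which holds the hypoxia-response core on both strands, a CRX-type site (TAATCC) and an NRL-type site (TGCTGA).
*Pfkp* promoter: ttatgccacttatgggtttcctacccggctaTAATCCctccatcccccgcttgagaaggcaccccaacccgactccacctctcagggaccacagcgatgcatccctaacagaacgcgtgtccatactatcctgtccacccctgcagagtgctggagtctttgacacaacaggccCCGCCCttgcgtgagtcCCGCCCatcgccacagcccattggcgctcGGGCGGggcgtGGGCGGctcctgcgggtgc
*Pfkm* promoter: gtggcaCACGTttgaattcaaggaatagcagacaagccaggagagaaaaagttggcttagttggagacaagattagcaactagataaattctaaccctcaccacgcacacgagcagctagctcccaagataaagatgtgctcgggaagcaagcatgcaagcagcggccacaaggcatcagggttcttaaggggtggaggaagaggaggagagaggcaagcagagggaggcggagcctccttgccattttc
*Pfkl* promoter: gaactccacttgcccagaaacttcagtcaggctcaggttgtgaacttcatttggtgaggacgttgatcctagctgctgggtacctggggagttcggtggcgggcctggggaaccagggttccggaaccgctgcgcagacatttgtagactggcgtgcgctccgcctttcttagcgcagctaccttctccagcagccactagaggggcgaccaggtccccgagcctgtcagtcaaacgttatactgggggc
*Hk1* intronic peak: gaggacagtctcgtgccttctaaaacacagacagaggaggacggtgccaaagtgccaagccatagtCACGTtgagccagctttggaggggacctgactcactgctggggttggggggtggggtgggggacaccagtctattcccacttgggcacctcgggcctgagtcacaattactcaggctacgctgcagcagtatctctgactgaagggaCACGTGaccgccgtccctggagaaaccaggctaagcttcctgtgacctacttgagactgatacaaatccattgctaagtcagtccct

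The *Pfkp* stretch held 4 GC boxes and 1 CRX-type site, the *Pfkm* stretch held 1 hypoxia-response core, and the *Pfkl* stretch held none of the 5 motifs. GC boxes were found in 32.7% of the 32851 RefSeq stretches of this length, hypoxia-response cores in 16.6%, E-boxes in 6.02%, CRX-type sites in 6.25% and NRL-type sites in 16.1%. Of the 17 RefSeq stretches of the 10 genes, 8 held a GC box, 6 a hypoxia-response core, 1 an E-box, 3 a CRX-type site and 2 an NRL-type site. The centre of the *Hk1* intronic peak held 1 E-box and 3 matches to the hypoxia-response core, of which the E-box supplied 2. It held no GC box, CRX-type or NRL-type site. Among the central 300 bases of all 108253 peaks, an E-box was found in 4.85% and a hypoxia-response core in 15.8%. A match is a run of letters and no evidence of binding.

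The libraries differed in depth and in the share of reads in peaks. Reads in peaks numbered 295383 to 358971 at P4, 199970 to 660740 at P10 and 1615969 to 8274373 at P28, which was 16.3% to 17.6%, 36.1% to 52.1% and 42.4% to 57.1% of the authors' normalized library size. RPKM counts reads per kilobase of peak, scaled to that size. In a peak of the median width of 757 bases, 3 reads were worth 0.24 to 1.04 RPKM at P28 but 1.8 to 2.36 RPKM at P4 and 3.12 to 7.15 RPKM at P10. Batch 2 held P28 replicate 1 alone, and the other libraries were of batch 1. Markers of some cell types of the eye were read at their promoter peaks, with no list for cones or for bipolar, amacrine, horizontal or ganglion cells. Over all protein-coding promoter peaks, 33.6% were called higher at P28 than at P4. All 9 of 9 listed rod markers had a promoter peak that was called higher at P28 than at P4. Their summed level was 27.7 to 29.3 RPKM at P4, 209.1 to 220.5 at P10 and 186.5 to 262.3 at P28. Of 6 Mueller glia markers 5 had a promoter peak and 1 rose (summed 9.7 to 11 RPKM at P4 and 18.5 to 23.6 at P28). Promoter peaks were present at 4 of 6 progenitor markers (summed 4.7 to 8.7 RPKM at P4 and 8.7 to 11.3 at P28), 3 of 5 endothelial markers (6.9 to 9.8 and 3.7 to 5.9) and 1 of 5 microglial markers (1.6 to 1.7 and 1.5 to 4.7), and 0 of them were called. Of 5 pigment epithelium markers, *Rpe65*, *Ttr* and *Lrat* had no promoter peak, and the summed level of the other 2 was 3.1 to 4.6 RPKM at P4 and 3.9 to 5.3 at P28. The part of the rise in rod markers in the results below was not tested.

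The peaks were 245 to 3109 bases wide, with a median of 982 bases. *Hk1* had 17 of them, *Hk2* 12, *Slc2a1* 9, *Pfkp* 5, *Pfkl* 3, *Gpi1* and *Aldoa* 2 each, and *Aldoc*, *Tpi1* and *Pfkm* 1 each. The deposited annotation placed 26 in introns, 15 in promoters, 6 in distal intergenic sequence, 2 in exons, 2 in 3′ UTRs and 2 in 5′ UTRs. An age is called at the floor where each of its libraries held 3 reads or fewer, and 31 of the 53 peaks were at the floor at P4, 19 at P10 and 0 at P28. At P4, 5 of the 53 peaks had no read. The merged set holds peaks called at any age, so these entered it through a later age. The direction of their change since P4 was fixed by that choice, and its p-value is no independent support.

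H3K18La rose at 8 of the 10 genes between P4 and P28 in the main test, with no called peak at *Pfkl* or *Pfkm* there. Of the 53 peaks, 28 were higher at P28 and 0 were lower (limma on log2(RPKM + 1) over all peaks, adjusted p under 0.01), while 18.9% of all peaks were called higher and 4.21% lower. Every P28 library was above every P4 library in 45 of the 53 peaks, against 50.6% of all peaks. The median change was 2.06 on the log2 scale over the 53 peaks and 0.68 over all peaks. Promoter peaks made up 11 of the calls among 15 such peaks (1 of them at a retained-intron and 1 at a nonsense-mediated decay transcript), where 33.6% of the promoter peaks of protein-coding transcripts were called higher, and the remaining 17 calls were among 38 peaks outside promoters, where the share over all such peaks was 16.6%. The calls fell on *Hk1* (10), *Slc2a1* and *Hk2* (6 each), *Aldoa* (2), and *Gpi1*, *Pfkp*, *Aldoc* and *Tpi1* (1 each), with 0 on *Pfkl* and *Pfkm*. With library weights and with voom on the recovered reads, the *Pfkm* peak was called (adjusted p = 0.00176 and 8.25e-05). So was the 3′ UTR peak of *Pfkl* (adjusted p = 0.00107 and 8.01e-05). In these settings 34.8% and 30.2% of all peaks were called higher. When each library was scaled to its reads in peaks, the median over all peaks moved to -0.29 and that over the 53 peaks to 1.1. The distance between them was 1.37 in the deposited scaling and 1.39 in the other. In the latter, 22.9% of all peaks were called in either direction, most of them lower. There 15 of the 53 peaks were called higher, against 7.3% of all peaks, and 1 lower. The count was 9 without P4 replicate 1 (5.21% of all peaks called higher), 13 without P4 replicate 2 (5.86%), 18 without P28 replicate 3 (8.45%) and 6 with all libraries thinned to the size of the smallest (3.23%), so calls over all peaks fell too.

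**Figure D1:**
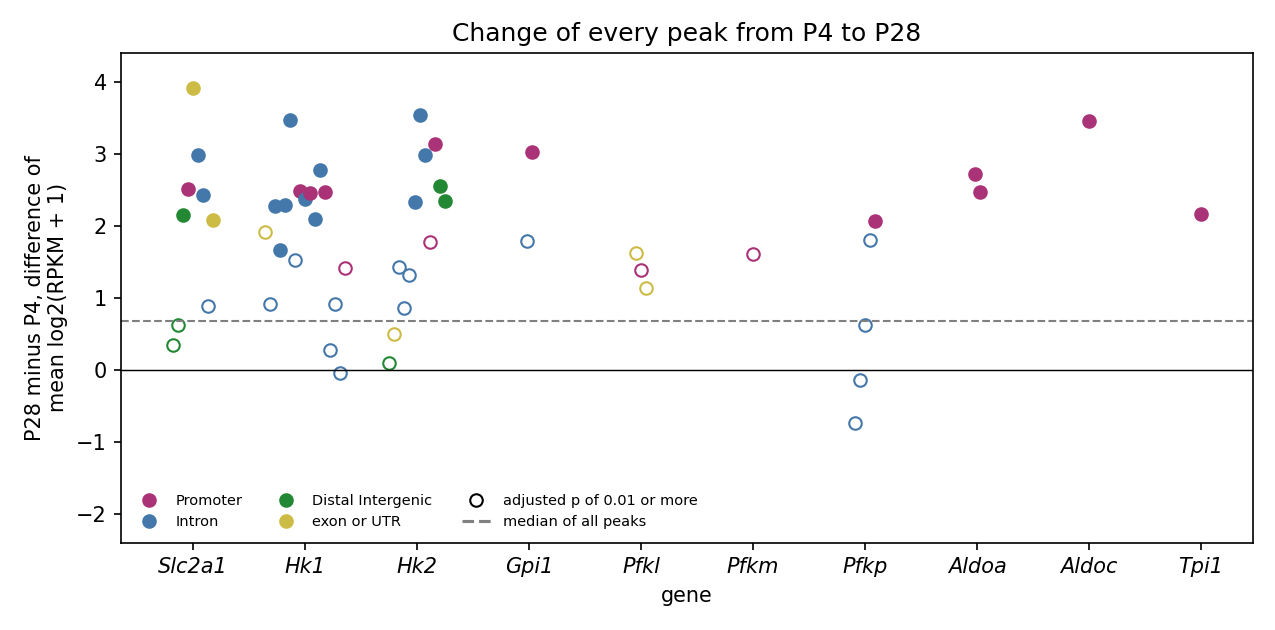
Change from P4 to P28 of each of the 53 peaks, by gene, as the difference of the mean log2(RPKM + 1), with filled circles for peaks at an adjusted p under 0.01, open circles for the others and colour for the annotation class. All 28 filled circles lie above the dashed line, which is the median of all peaks (0.68), and the *Pfkl* and *Pfkm* peaks are all open.

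Between P4 and P10, 15 of the 53 peaks rose and 0 fell, while 11.4% of all peaks were called higher and 7.34% lower. Every P10 library was above every P4 library in 32 of the 53 peaks, against 36.1% of all peaks. The median change was 1.24 over the 53 peaks and 0.23 over all peaks. Only 3 of the 15 promoter peaks were among the calls, where 12.3% of protein-coding promoter peaks were called higher, and 12 of 38 peaks outside promoters were, where the share over all such peaks was 11.1%. With libraries scaled to reads in peaks there were 6 calls, 4 higher, against 4.38% of all peaks, and 2 lower (an *Hk2* exon peak at chr6:82736496-82737227 and a *Pfkp* intron peak at chr13:6624545-6624865). In that scaling 20.5% of all peaks were called in either direction, most of them lower. There were 5 calls after quantile normalization (4.08% of all peaks called higher) and 0 with thinned libraries (1.76%). The count was 4 without P4 replicate 1 (2.59% of all peaks), 9 without P4 replicate 2 (2.94%), 9 without P28 replicate 1 (7.08%) and 7 without P28 replicate 2 (5.06%), the last 2 of which enter this contrast through the shared estimate of the spread alone.

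Between P10 and P28, 0 of the 53 peaks passed the limma test, as did 2 of all 108253 peaks (0.00185%). At an unadjusted p under 0.05 there were 25 of 53, against 32.5% of all peaks, and voom on the recovered reads called 2, against 8.26% of all peaks. The smallest adjusted p was 0.0113, at a distal *Hk2* peak that had no read at P4 or P10 (chr6:82783182-82784163, with 3.47, 4.13 and 4.75 RPKM at P28). That peak could enter the merged set only through P28, so the direction of its difference was fixed by that choice. Without P10 replicate 2, 10 peaks were called higher, against 13% of all peaks. Every P28 library was above every P10 library in 29 of the 53 peaks, against 32.2% of all peaks. In 10 of the 53 peaks the mean was higher at P10 than at P28.

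Each of the 10 genes had a peak of the promoter class, and the one nearest an annotated transcript start is called its promoter peak below. For *Pfkl* that start is internal, at a retained-intron transcript, and no peak held its coding start, so its values do not measure the promoter of the coding transcript. At all 10, every P28 library was above every P4 library, as at 79.1% of protein-coding promoter peaks, and 8 passed the test, all but *Pfkl* and *Pfkm*, where 33.6% of protein-coding promoter peaks were called higher. Those 8 changes stayed positive under every alternative that was run, and 5 of them were called with libraries scaled to reads in peaks and 2 (*Hk2* and *Gpi1*) with thinned libraries. Of the 8, *Hk2* and *Aldoc* were called whichever library was left out. Without P4 replicate 1, 3 of the 10 were called (*Hk2*, *Aldoa* and *Aldoc*). Without P4 replicate 2, 4 were (*Slc2a1*, *Hk2*, *Gpi1* and *Aldoc*), and *Gpi1* and *Tpi1* were no longer called without P28 replicate 1 or P28 replicate 3, nor *Gpi1* without P28 replicate 2. Without P10 replicate 1 or P10 replicate 2, all 10 were called, and the share of all peaks called higher was 32.1%. Between P4 and P10, 3 of the 10 were called (*Slc2a1*, *Aldoa* and *Aldoc*), where 12.3% of protein-coding promoter peaks were called higher. The count was 0 with libraries scaled to reads in peaks (4.38% of all peaks called higher) or with thinned libraries (1.76%). It was 1 with a pseudocount of 0.1 (8.38%), after quantile normalization (4.08%), with library weights (4.94%) or without P28 replicate 2 (5.06%). Without P4 replicate 1, which leaves 1 library at P4, the median change over the 10 was 1.46, against 1.6 with all libraries. With voom it was 6, where 14.5% of all peaks were called higher.

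**Figure D2:**
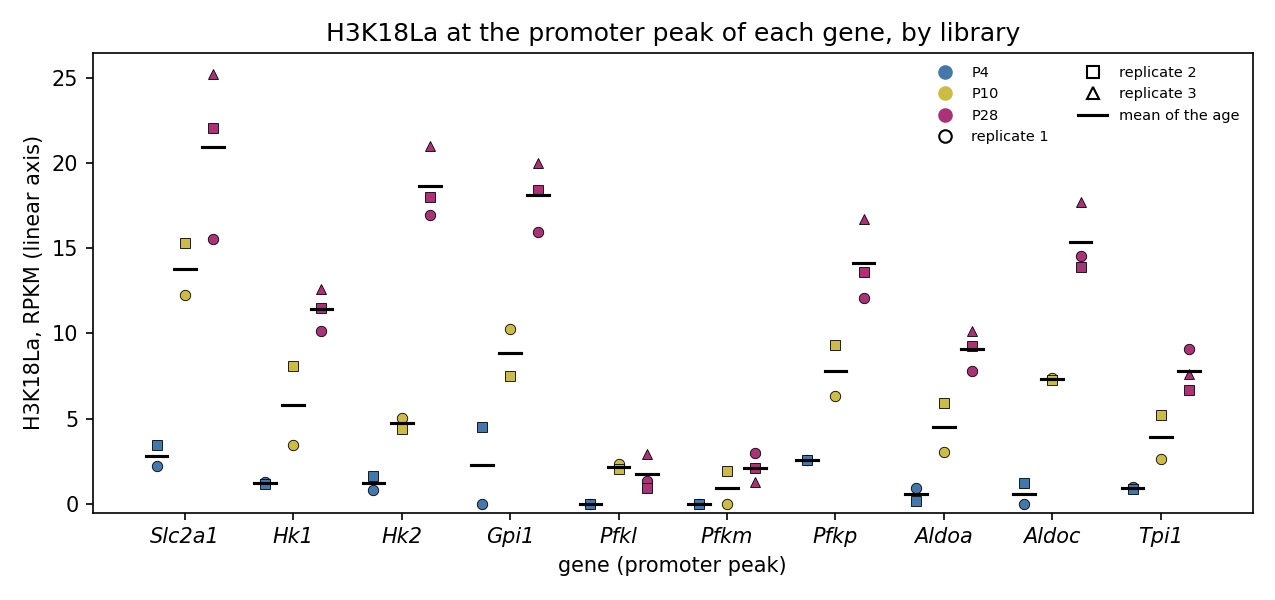
H3K18La at the promoter peak of each of the 10 genes in RPKM, with 1 point per library, colour for the age, marker shape for the replicate number and a bar for the mean of the age. At P28 the means run from 20.9 (*Slc2a1*) to 1.75 (*Pfkl*), and *Pfkl* and *Pfkm* stay at or under 3.02 in every library.

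At the transport step, the *Slc2a1* promoter peak (ENSMUSG00000028645, chr4:119108489-119109517) had 2.21 and 3.48 RPKM at P4, 12.3 and 15.3 at P10, and 15.6, 22 and 25.2 at P28. All P10 and P28 libraries were above both P4 libraries, and the P28 replicate 1 value lay next to the higher P10 value. The level was 7.36-fold higher at P28 than at P4 (log2 change 2.51, SE 0.31, adjusted p = 0.000364) and 4.85-fold higher at P10 than at P4 (1.96, SE 0.34, adjusted p = 0.00275). The P4 to P28 change was smaller, though called, with libraries scaled to reads in peaks (1.2, adjusted p = 0.0043) and after quantile normalization (1.38, adjusted p = 0.00325). From P10 to P28 the ratio of the means was 1.52 (adjusted p = 0.246).

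A larger rise was found 3187 bases downstream of the start, in a peak that the deposited annotation classes as 5′ UTR (chr4:119111898-119113025). It had 0 and 2.65 RPKM at P4, 25.6 and 25.2 at P10, and 22.8, 29.1 and 31.7 at P28. The P10 and P28 libraries overlapped and lay far above both P4 libraries. The log2 change was 3.79 (SE 0.51, adjusted p = 0.00108) from P4 to P10 and 3.91 (SE 0.46, adjusted p = 0.00032) from P4 to P28, on 5 reads at P4, all in replicate 2, and 0.12 (adjusted p = 0.879) from P10 to P28. The P4 to P28 change was 2.97 without P4 replicate 1 and 4.84 without P4 replicate 2. With a pseudocount of 0.1 neither change was called (adjusted p = 0.017 at P10 and 0.0128 at P28), nor with thinned libraries (0.101 and 0.0432). At P28 this peak was the strongest of the 9 *Slc2a1* peaks, of which 6 were called higher than at P4.

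At the hexokinase step, the *Hk2* promoter peak (ENSMUSG00000000628, chr6:82774246-82775314) had 0.85 and 1.67 RPKM at P4, 5.07 and 4.42 at P10, and 16.9, 18 and 21 at P28. No library of one age reached the values of the next. The level was 14.77-fold higher at P28 than at P4 (log2 change 3.14, SE 0.31, adjusted p = 0.000163). The P4 libraries held 2 and 3 reads, so the peak was at the floor at P4. The ratio of pooled reads between P28 and P4 was 15.3 (exact interval 6.53 to 47.5, for counting error only). Without P4 replicate 1 that ratio was 11.1, and without P4 replicate 2 it was 21.8. With libraries scaled to reads in peaks the log2 change was 2.01 (adjusted p = 0.00175). The log2 difference between P28 and P10 was 1.77 (SE 0.31, adjusted p = 0.0124), which did not pass 0.01. The change from P4 to P10 was 1.37 (SE 0.34, adjusted p = 0.0119).

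The *Hk1* promoter peak (ENSMUSG00000037012, chr10:62338104-62341212) had 1.32 and 1.15 RPKM at P4, 3.48 and 8.11 at P10, and 10.1, 11.5 and 12.6 at P28. Its P10 libraries were far apart, and both lay between the P4 and the P28 libraries. CUT&Tag carries no strand, so signal in this peak cannot be assigned to *Hk1* or to the antisense gene *Hk1os*, which overlaps its start. The level was 9.25-fold higher at P28 than at P4 (log2 change 2.47, SE 0.37, adjusted p = 0.000856). With libraries scaled to reads in peaks the change was 1.35 (adjusted p = 0.00675). *Hk1* had 3 other promoter-class peaks. Those at chr10:62326743-62328509 and chr10:62318284-62319412 were also called higher at P28 (2.45 and 2.49), and that at chr10:62380668-62381445, 760 bases from an upstream start of *Hk1*, was not (1.41, adjusted p = 0.0378).

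*Gpi1* (ENSMUSG00000036427, chr7:34229959-34230485) had 0 and 4.53 RPKM at its promoter peak at P4, from 0 and 4 reads, 10.3 and 7.48 at P10, and 15.9, 18.4 and 20 at P28. The ages did not overlap, although the P4 libraries differed from each other more than in any other promoter peak of the 10. The level was 8-fold higher at P28 than at P4 (log2 change 3.02, SE 0.58, adjusted p = 0.00304). Without P4 replicate 1 it was 4-fold higher and not called (1.78, adjusted p = 0.0124). Nor was it called with libraries scaled to reads in peaks (2.12, adjusted p = 0.0598), after quantile normalization (adjusted p = 0.0424) or with a pseudocount of 0.1 (adjusted p = 0.0409). Its intronic peak (chr7:34225874-34226613) had 1.23 and 0 RPKM at P4, 0 and 1.07 at P10, and 3.19, 4.82 and 4.67 at P28, and was not called (1.79, adjusted p = 0.0218).

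At the phosphofructokinase step, the *Pfkp* promoter peak (ENSMUSG00000021196, chr13:6646955-6649240) had 2.58 and 2.61 RPKM at P4, 6.32 and 9.31 at P10, and 12.1, 13.6 and 16.7 at P28. The 3 ages did not overlap, and the level was 5.43-fold higher at P28 than at P4 (log2 change 2.06, SE 0.3, adjusted p = 0.000801). With libraries scaled to their reads in peaks the change was 0.77 and was not called (adjusted p = 0.022), nor was it after quantile normalization (1.02, adjusted p = 0.0115).

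The *Pfkm* peak (ENSMUSG00000033065, chr15:98108099-98109314) had no read at P4, 0 and 1.94 RPKM at P10, and 3.02, 2.12 and 1.28 at P28. It was at least 3.25-fold higher at P28 than the level that 3 reads over the P4 libraries allow (log2 change 1.61, SE 0.49, adjusted p = 0.024), a bound that was 1.4 to 3.6 when 1 P4 or P28 library was left out. The upstream starts of *Pfkm* (chr15:98092589 and chr15:98092644) lay in no peak. The nearest peak, 147 bases from the second, carried the symbol of the neighbouring gene *Senp1* and had 0.78 and 1.54 RPKM at P4 and 1.35, 1.74 and 1.78 at P28.

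The *Pfkl* promoter-class peak (ENSMUSG00000020277, chr10:77991630-77992398) had no read at P4, 2.35 and 2.05 RPKM at P10, and 1.36, 0.96 and 2.92 at P28. It was at least 1.45-fold higher at P28 than the level that 3 reads over the P4 libraries allow (log2 change 1.39, SE 0.43, adjusted p = 0.0259), but this bound was 0.626 without P4 replicate 1, 0.822 without P4 replicate 2 and 2.29 without P28 replicate 2. The start it was assigned to is that of an internal transcript with a retained intron. The coding start of *Pfkl* (chr10:78009807) lay in no peak, and the nearest peak, classed as 5′ UTR and 2735 bases away (chr10:78004927-78007072), had 1.06 and 1.67 RPKM at P4, 4.21 and 3.31 at P10, and 3.79, 3.75 and 4.91 at P28. Its change of 1.13 was not called (adjusted p = 0.0336). The *Pfkl* peak with the highest mean at P28 was in the 3′ UTR class (chr10:77984112-77987070) and had 4.08, 4.96 and 5.25 RPKM there, after 0.92 and 0.81 at P4 (1.62, adjusted p = 0.0185).

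At the aldolase step, the *Aldoc* promoter peak (ENSMUSG00000017390, chr11:78322676-78323651) had 0 and 1.22 RPKM at P4, 7.4 and 7.27 at P10, and 14.5, 13.9 and 17.7 at P28. The 3 ages did not overlap. The log2 change from P4 to P28 was 3.45 (SE 0.38, adjusted p = 0.000239), and the change from P4 to P10 was 2.48 (SE 0.42, adjusted p = 0.0024). The P4 libraries held 2 reads together, which gave a ratio of pooled reads of 28.1 between P28 and P4 with an exact 95% interval of 7.72 to 233, for counting error only. Without P4 replicate 1 that ratio was 12.1 (3.34 to 101), and without P4 replicate 2 no read was left at P4.

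*Aldoa* was one of the genes the study chose to show from these same libraries, so its direction is not independent of that choice. Its promoter peak (ENSMUSG00000030695, chr7:126797175-126800102) had 0.93 and 0.2 RPKM at P4, 3.08 and 5.92 at P10, and 7.8, 9.26 and 10.2 at P28. The ages were separate and ordered. The level was 15.98-fold higher at P28 than at P4 on 7 reads at P4 (log2 change 2.72, SE 0.39, adjusted p = 0.000732), and the P4 to P10 change was 1.8 (SE 0.43, adjusted p = 0.00991). Without P4 replicate 2 the P28 level was 9.74-fold that of P4, and without P4 replicate 1, which left 1 read, the ratio of pooled reads was 45.3 (interval 8.11 to 1790). A second promoter-class peak under the symbol *Aldoa*, with another gene identifier (ENSMUSG00000114515, chr7:126808675-126809380), had 0 and 0.85 RPKM at P4, 7.67 and 1.12 at P10, and 5.57, 5.48 and 9.05 at P28 (2.47, SE 0.59, adjusted p = 0.00895). That call rested on 1 read at P4 and was lost without any one of the P4 or P28 libraries, at adjusted p-values of 0.0304 to 0.114.

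The *Tpi1* promoter peak (ENSMUSG00000023456, chr6:124813306-124814659) had 1.01 and 0.88 RPKM at P4, 2.67 and 5.24 at P10, and 9.11, 6.67 and 7.65 at P28. The ages were again separate. The level was 8.27-fold higher at P28 than at P4 (log2 change 2.17, SE 0.37, adjusted p = 0.00165). The P4 libraries held 3 and 2 reads, so the peak was at the floor at P4. The ratio of pooled reads between P28 and P4 was 7.61 (exact interval 3.22 to 23.6, for counting error only). Without P4 replicate 1 that ratio was 8.23, and without P4 replicate 2 it was 7.2. With libraries scaled to their reads in peaks the log2 change was 1.14 (adjusted p = 0.0257).

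Ordered by mean level at P28, the promoter peaks were *Slc2a1* with 20.9 RPKM ± 4.91 (SD, n = 3), *Hk2* with 18.6 ± 2.11, *Gpi1* with 18.1 ± 2.05, *Aldoc* with 15.4 ± 2.03, *Pfkp* with 14.1 ± 2.37, *Hk1* with 11.4 ± 1.24, *Aldoa* with 9.07 ± 1.19, *Tpi1* with 7.81 ± 1.22, *Pfkm* with 2.14 ± 0.87 and *Pfkl*, at its internal peak, with 1.75 ± 1.03. Neighbours in this order overlapped between libraries except *Tpi1* and *Pfkm*. Over all promoter peaks of protein-coding transcripts, 96.8% were lower at P28 than that of *Slc2a1*, 95.5% lower than that of *Hk2* and 95.2% lower than that of *Gpi1*, while 13.1% were lower than that of *Pfkm*. At P4 the *Pfkp* peak had the highest mean after *Slc2a1*, but its libraries overlapped those of *Slc2a1* and of *Gpi1*, which came next. At P28 *Hk2*, *Gpi1* and *Aldoc* also had higher means than *Pfkp*.

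Isoenzymes of a step were compared within each library, where a common scale factor cancels apart from the pseudocount. Each of the 5 pairs was tested for a change of the within-library difference of log2(RPKM + 1) between P4 and P28 with a two-sided exact permutation test over libraries. With 3 against 2 libraries its smallest p is 0.2, so no pair could pass 0.05. The reads behind each library's ratio give exact 95% intervals for counting error only. Levels and ratios are per base of peak, so the order of isoenzymes depends on the width of the merged peaks.

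For hexokinase, the *Hk2* promoter peak exceeded that of *Hk1* in all 3 P28 libraries. Per base of peak, the *Hk2* to *Hk1* ratio of reads was 1.67 (interval 1.23 to 2.27), 1.56 (1.36 to 1.8) and 1.67 (1.33 to 2.08) at P28. It was 0.646 (0.068 to 3.12) and 1.45 (0.235 to 6.81) at P4 and 1.45 (0.235 to 6.81) and 0.545 (0.186 to 1.32) at P10. The P28 intervals all lay above 1, while those at P4 and P10 all held 1. In reads alone the wider *Hk1* peak (3109 bases, against 1069) held more, with 929 over the P28 libraries against 512. The log2 difference was 0.66 ± 0.05 (SD, n = 3) at P28 and 0 ± 0.45 (n = 2) at P4, a change of 0.67 (exact p = 0.2, 0.5 adjusted over the 5 pairs), and the ages did not overlap. The P4 libraries were at -0.32 and 0.31, so the size of this change depends on which of them is kept. Over all peaks of each gene, weighted by length, the order was the other way, with 12.7 RPKM ± 1.94 for *Hk1* and 7.6 ± 1.28 for *Hk2* at P28.

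For phosphofructokinase, *Pfkp* had a higher level than the *Pfkm* peak and the internal *Pfkl* peak in every library of every age. The *Pfkm* to *Pfkp* ratio of reads per base was 0.251 (0.132 to 0.44), 0.156 (0.111 to 0.214) and 0.0766 (0.0345 to 0.148) at P28, and the *Pfkl* to *Pfkp* ratio was 0.113 (0.0303 to 0.299), 0.0706 (0.0363 to 0.124) and 0.175 (0.0917 to 0.305). At P4 both were 0, from 0 reads against 23 at *Pfkp* over the 2 libraries, which allows a ratio up to 0.327 for *Pfkm* and 0.517 for *Pfkl*. At P10 the *Pfkm* ratio was 0 (0 to 1.1) and 0.209 (0.0406 to 0.679), and the *Pfkl* ratio was 0.372 (0.00837 to 2.77) and 0.22 (0.0254 to 0.876). The intervals of P10 replicate 1 held 1 for both, as did that of *Pfkl* in P4 replicate 2 (0 to 1.33), so at those depths the order was not detectable in a single library. The log2 difference from *Pfkp* at P28 was -2.29 ± 0.63 for *Pfkm* and -2.51 ± 0.36 for *Pfkl* (SD, n = 3). The change of this difference since P4 was -0.45 (exact p = 0.6, 1 adjusted over the 5 pairs) and -0.66 (exact p = 0.2, 0.5 adjusted), and with a pseudocount of 0.1 both changes were positive, at 2.02 and 1.68. At their promoter peaks *Pfkl* and *Pfkm* were not ordered, since *Pfkl* was lower in P28 replicates 1 and 2 and higher in replicate 3 (-0.22 ± 0.87, SD, n = 3). Over all peaks of each gene, weighted by length, *Pfkl* was above *Pfkm*, which has 1 peak, in all 7 libraries, with 3.62, 4 and 4.82 RPKM against 3.02, 2.12 and 1.28 at P28.

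For aldolase, the *Aldoc* promoter peak exceeded that of *Aldoa* per base in all 3 P28 libraries. The *Aldoa* to *Aldoc* ratios of reads per base were 0.537 (0.378 to 0.769), 0.665 (0.565 to 0.785) and 0.573 (0.446 to 0.741). The P28 intervals all lay under 1. In reads alone the wider *Aldoa* peak (2928 bases, against 976) held more in each of these libraries, with 700 over them against 375. At P10 the ratios were 0.417 (0.0897 to 2.1) and 0.815 (0.361 to 2.01), and at P4 the libraries went in opposite directions on 7 reads for *Aldoa* and 2 for *Aldoc*. The log2 difference was -0.7 ± 0.14 (SD, n = 3) at P28 and 0.03 ± 1.3 (n = 2) at P4, and its change of -0.73 (exact p = 0.8, 1 adjusted over the 5 pairs) was 0.18 without P4 replicate 1.

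**Figure D3:**
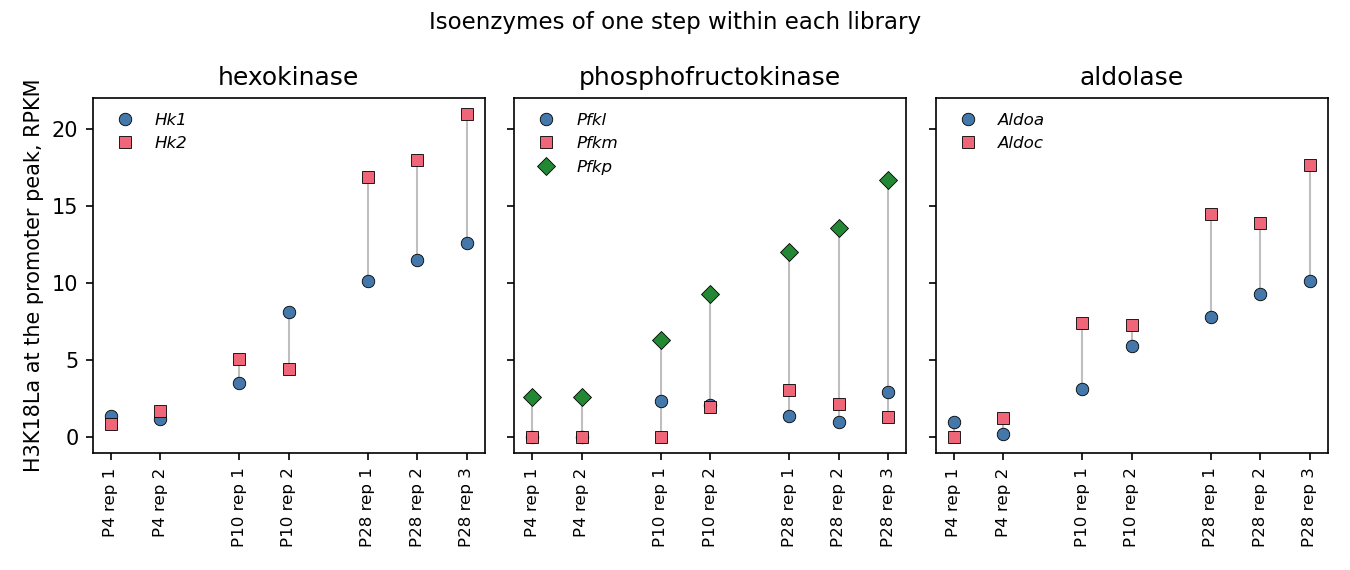
H3K18La in RPKM at the promoter-class peaks of the isoenzymes of hexokinase, phosphofructokinase and aldolase in each of the 7 libraries, with a grey line joining the genes of 1 library. *Hk2* lies above *Hk1* and *Aldoc* above *Aldoa* in all 3 P28 libraries, *Pfkp* lies above the other subunits in every library, and *Pfkl* and *Pfkm* share the point at 0 at P4.

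Outside promoters, the *Hk1* gene held the strongest of the 53 peaks, in an intron 40.1 kb downstream of the start inside its promoter peak (chr10:62299669-62301159, 1491 bases). It had 10.4 and 12.8 RPKM at P4, 59.3 and 71.9 at P10, and 34.5, 38.9 and 43.7 at P28. The 3 ages did not overlap, and P10 was the highest. By mean RPKM it ranked 89th of all 108253 peaks at P4, 101st at P10 and 246th at P28. The log2 change was 2.4 (SE 0.26, adjusted p = 0.00056) from P4 to P10 and 1.67 (SE 0.24, adjusted p = 0.000735) from P4 to P28, on 66 reads at P4. From P10 to P28 the difference was -0.74 (SE 0.24, unadjusted p = 0.0122, adjusted p = 0.0685), and after median centring it was -1.01 and called (adjusted p = 0.00482). With thinned libraries neither the change from P4 to P10 (2.46, adjusted p = 0.0279) nor that from P4 to P28 (1.61, adjusted p = 0.051) was called. The P4 to P28 change was 0.19 (adjusted p = 0.313) with libraries scaled to reads in peaks and -0.26 (adjusted p = 0.158) after quantile normalization, where that from P4 to P10 was 0.05 (adjusted p = 0.839). It was not called without P4 replicate 1 (adjusted p = 0.0162) or P4 replicate 2 (adjusted p = 0.0102).

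The *Hk1* peaks on either side of it, at 33.9 and 46.6 kb (chr10:62306147-62307065 and chr10:62293345-62294558), also had every P28 library below every P10 library. The first had 0.49 and 1.95 RPKM at P4, 11.8 and 13.7 at P10, and 6.57, 11.1 and 10.9 at P28. The second had 0.75 and 2.46, 11.9 and 13, and 10.4, 11 and 11.2. Both rose from P4 to P10 (2.71, adjusted p = 0.00178, and 2.45, adjusted p = 0.0017), and neither difference between P10 and P28 was called (-0.42 and -0.18). These 3 were the only ones of the 53 peaks in which P28 lay wholly below P10, against 14.9% of all peaks.

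The next *Hk1* intronic peak had its highest values at P28. At 30.1 kb (chr10:62309740-62311103) it had 0.33 and 1.31 RPKM at P4, 10.6 and 8.09 at P10, and 13.7, 20.6 and 22 at P28 (3.47 from P4 to P28, SE 0.36, adjusted p = 0.000187), with no overlap between ages. The 3 intronic peaks upstream of the promoter peak, at -20.1, -32.2 and -33.8 kb, had mean levels of 0.37 to 1.81 RPKM at P4 and 1.5 to 2.33 at P28, and none was called.

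**Figure D4:**
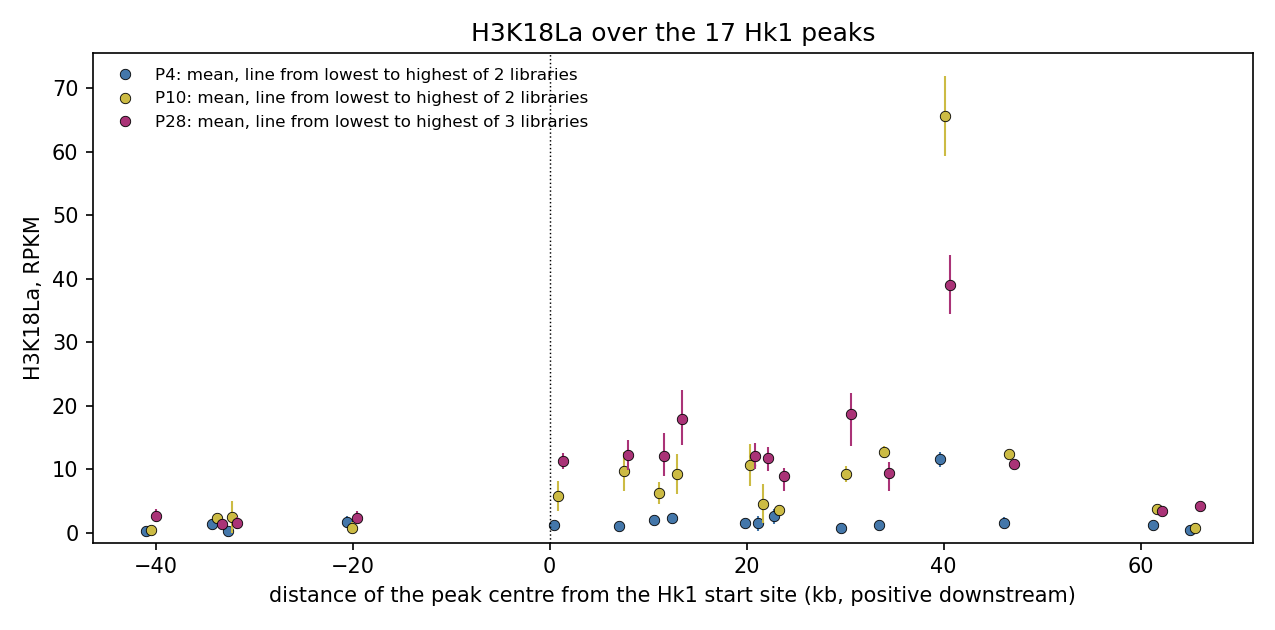
Mean H3K18La in RPKM at the 17 *Hk1* peaks by distance of the peak centre from the start site in kb, with lines from the lowest to the highest library of each age. The peak at 40.1 kb reaches 65.6 RPKM at P10 and 39 at P28, and the peaks upstream of the start stay under 3 RPKM on average at every age.

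*Hk2* had 4 further peaks from 347 to 6170 bases downstream of its start, of which 3 rose. The intronic peak at chr6:82770788-82772447, its strongest outside promoters at P28, had 0.82 and 1.08 RPKM at P4, 4.35 and 6.17 at P10, and 10.4, 17.2 and 16.8 at P28 (2.99, SE 0.34, adjusted p = 0.000275). The narrow peak beside it (chr6:82770360-82770604) had no read at P4, 7.37 and 12.9 RPKM at P10, and 8.57, 11.5 and 12 at P28. P10 and P28 overlapped there, and both rose over P4 (3.43, adjusted p = 0.000616, and 3.54, adjusted p = 0.000172). P28 was at least 3.55-fold above the level of 3 reads over both P4 libraries, a bound that is lower with 1 P4 library. The farthest (chr6:82767906-82768284) had 1.2 and 1.57 RPKM at P4, 4.76 and 8.32 at P10, and 13.8, 8.6 and 10.9 at P28 (2.33, SE 0.35, adjusted p = 0.000928). Its P4 libraries held 1 read each and lay below all others. A second promoter-class peak at chr6:82773626-82774107 was not called (1.78, adjusted p = 0.0179).

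The distal *Hk2* peaks differed among themselves. Those at -5902 and -8728 bases from the start (chr6:82780356-82781091 and chr6:82783182-82784163) had no read at P4 and rose to 4.89 ± 0.87 and 4.12 ± 0.64 RPKM at P28 (SD, n = 3; 2.55, adjusted p = 0.00173, and 2.35, adjusted p = 0.000995). Both entered the merged set through a later age, so the direction of these changes was fixed by that choice. The distal peak at chr6:82722976-82723781 had 1.13 and 1.48 RPKM at P4 and 1.3, 1.75 and 1.29 at P28 (0.09, adjusted p = 0.884). For *Slc2a1*, 1 of 3 distal peaks was called (chr4:119105084-119106323, 2.15, adjusted p = 0.00158), and the others had changes of 0.35 and 0.62.

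*Pfkp* introns held the peaks with the lowest changes from P4 to P28. That at chr13:6630330-6631558 had 4.44 and 3.4 RPKM at P4, 4.41 and 3.21 at P10, and 2.35, 4.3 and 3.93 at P28, so that all ages overlapped (-0.14, adjusted p = 0.779). That at chr13:6624545-6624865 had 2.83 and 3.72 RPKM at P4 and no read at P10, on 2 reads in each P4 library, and 0.82, 1.15 and 3.23 RPKM at P28. Its changes of -2.09 from P4 to P10 (adjusted p = 0.0122) and -0.74 from P4 to P28 (adjusted p = 0.228) were not called. With libraries scaled to reads in peaks both were called lower (-2.95, adjusted p = 0.00189, and -1.89, adjusted p = 0.00788). The first was also called lower with a pseudocount of 0.1 (-5.06, adjusted p = 0.00937) and after median centring (-2.34, adjusted p = 0.00442), and the second after quantile normalization (-1.8, adjusted p = 0.0096). The strongest *Pfkp* peak outside the promoter at P28 (chr13:6631808-6632599) had 2.29 and 3.01 RPKM at P4, 0 and 2.99 at P10, and 3.98, 4.58 and 5.23 at P28. Its change was 0.62 from P4 to P28 (adjusted p = 0.385) and -0.87 from P4 to P10 (adjusted p = 0.309). Without P10 replicate 2 the latter was -1.86.

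Among 29 other genes of glucose use, 22 had a promoter peak. From P4 to P28, 12 of these rose and 0 fell, where 33.6% of protein-coding promoter peaks were called higher. The median change was 1.99, against 1.35 over those peaks and 2.49 over the 10 promoter peaks of uptake and upper glycolysis. Enzymes of the lower pathway among the calls included *Gapdh* (2.42, adjusted p = 0.000744), *Eno1* (2.49, adjusted p = 0.00022), *Pkm* (2.57, adjusted p = 0.000943) and *Ldha*, the lactate dehydrogenase subunit that favours lactate (2.16, adjusted p = 0.00191). *Ldhb*, the other main subunit, was not called (0.86, adjusted p = 0.0863), nor was *Fbp1*, the gluconeogenic counterpart of phosphofructokinase (-1, adjusted p = 0.155). At P10 against P4, 4 of the 22 were called higher (12.3% of protein-coding promoter peaks) and 0 lower, and at P28 against P10 none was. No pair of these sets was tested for a difference between them.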

How the data were processed

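H3K18La CUT&Tag of whole mouse retina was analysed in 7 libraries (P4, P10 and P28), grouped by the sample labels. The authors aligned reads to GRCm38, called MACS peaks, merged the consensus peaks of the 3 ages, annotated them with ChIPseeker 1.34.1 and counted reads per merged peak with a normalization from large genomic windows. They deposited these values as RPKM, 1 per peak and library. Multiplied by peak width, the RPKM of each library came in steps of 1 fixed amount, so that whole reads were recovered for 100.0% of peaks (tolerance 0.01 reads), and these reads served for depth, counting intervals and voom. The authors' table of edgeR 3.40.2 fold changes, p-values and group means was not used. No whole-library read totals were used here. Intervals cover counting error only, since reads carry no molecular identifiers.

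All 108253 peaks in all 7 libraries were fitted together on log2(RPKM + 1), without filter or covariate, using limma 3.58.1 under R 4.3.3, its empirical Bayes step allowing for a trend of the variance. Calls are those under 0.01 after Benjamini-Hochberg adjustment. This scale understates the change of low peaks. A fold is the ratio of mean RPKM. It is not given where the P4 libraries together held 3 reads or fewer. Where they held none, the ratio to a level of 3 reads over the group is given, which leaves out counting error at P28. The named promoter peak is the promoter-class peak nearest the start, with ties decided by a coding start in GENCODE M21, then width. This tie rule was added after the files were seen, from the annotation and not from signal. Of the other peaks of a gene, that with the highest mean at P28 was named. Other peaks given in the text were chosen after their values were seen. Motifs were searched in RefSeq promoter sequences and peak centres of GRCm38.p6, the authors' build, and all 10 genes matched by symbol. The fitting was tested on simulated data. Alternatives were the pseudocount, a filter on low peaks, library scaling, thinning, batch, a replicate block, library weights, voom and leaving out each library. The alternatives for the strongest other peaks were added after seeing the data. The genes and lists were chosen with earlier results of these data known.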

Additional observations from a re-analysis of the deposited data

How the results depend on the processing

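Between P4 and P28, 28 peaks were called, all higher. The number called was 16 (15 higher and 1 lower) with libraries scaled to reads in peaks, 6 with thinned libraries and 9 to 38 when 1 library was left out, where 22.9%, 5.4% and 7.18% to 39.2% of all peaks were called. Between P4 and P10, 15 peaks were called, all higher. The number was 6 (4 higher and 2 lower) with that scaling, 5 after quantile normalization, 9 within batch 1, 9 with library weights, 0 with thinned libraries and 4 to 19 when 1 library was left out, where 20.5%, 6.73%, 12%, 5.02%, 3.26% and 5.05% to 19.4% of all peaks were called. Between P10 and P28 no peak was called (0 of 53). The number was 1 with a pseudocount of 0.1, 2 each with a pseudocount of 3, median centring (1 higher and 1 lower) and voom, and 0 to 10 when 1 library was left out, where 1.23%, 2.18%, 2.17%, 8.26% and 0% to 15.2% of all peaks were called. These counts do not say which peaks are shared. The cause was not tested, except that thinning and leaving out libraries leave fewer reads or samples.

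The change of the *Hk2* minus *Hk1* difference kept its sign in all 14 alternatives (0.06 to 0.99). That of *Pfkl* minus *Pfkm* turned to 0.06 within batch 1 and ran from -0.72 to 0.06 when 1 library was left out. That of *Pfkl* minus *Pfkp* turned to 1.68 with a pseudocount of 0.1 and to 0.1 over all peaks of the genes. That of *Pfkm* minus *Pfkp* turned to 2.02 with a pseudocount of 0.1, 0.23 after quantile normalization, 0.01 with thinned libraries and 0.31 over all peaks. That of *Aldoa* minus *Aldoc* ran from -1.65 to 0.18 when 1 library was left out. No value could be had for the *Pfkl* and *Pfkm* pairs above the filter on low peaks, which removes both. The P4 to P28 change of the *Hk1* intronic peak turned to -0.26 after quantile normalization, and that of the strongest *Pfkp* peak outside the promoter to -0.61 with scaling to reads in peaks and -0.24 after quantile normalization.

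Same-numbered libraries showed little shared deviation from the mean of their age (r from -0.001 to 0.047). With 2 libraries at P4 and at P10 the deviations mirror each other, so this check cannot exclude a pairing. With the replicate number as a block, 26, 14 and 0 peaks were called in the 3 contrasts, and the isoenzyme differences in the order above were 0.65, -0.72, -0.83, -0.11 and -0.71. A P4 or P10 level under 3 reads cannot be told from absence of signal at this depth.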
